A study of Mus musculus with 66 samples.

Results

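Progenitors of motor neurons, sorted as NFIA-positive pM cells from differentiating mouse embryonic stem cells, were compared between day 9 and day 11 of the culture. The comparison rests on 5 of the 66 libraries of the series: 3 WT pM libraries labelled NFIAp at day 9 (replicates 1, 2 and 3) and 2 with the same labels at day 11 (replicates 2 and 3). Genes were taken when their normalised count reached 10 in at least 2 of these 5 libraries, which kept 13268 of the 24410 genes in the table. All groups used here came from one culture scheme. Embryonic stem cells were grown with 10 ng/ml bFGF, then from day 2 with 5 µM CHIR99021, an inhibitor of GSK3β. Retinoic acid at 100 nM was given from day 3 to day 5. SAG at 10 nM, which activates Smoothened, was added on day 3 and kept to the end of the culture. Both days compared here therefore lie after retinoic acid was withdrawn and under continued SAG. Cells were fixed in glyoxal, stained and sorted at 10000 to 15000 per population, and polyadenylated RNA was sequenced. Changes over the same days in a pair of other populations serve as references: WT p2 cells (progenitors of V2 interneurons) labelled NFIAp, with 3 libraries at day 9 and 2 at day 11, and MUT pM cells labelled NFIAn, with 2 libraries on each day. Which gene is mutated is not given in the labels. All MUT libraries are NFIAn and both WT pM libraries of day 11 are NFIAp, so that genotype and gate cannot be told apart. Nothing in the labels tells whether replicates are separate cultures. The p-values then reflect no more than the spread within groups, pooled over all 66 libraries, and that spread may be technical.

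The pM domain of the ventral neural tube is set by sonic hedgehog through the transcription factors OLIG2 and NKX6-1. Its progenitors first make motor neurons and later stop doing so and give rise to oligodendrocyte precursors and some astrocytes. NFIA, a nuclear factor I protein, appears in the progenitors at this neurogenic to gliogenic switch and takes part in it, together with SOX9 and NFIB.

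The 5 libraries held 21.6 to 28.7 M reads, and 12469 to 13109 genes reached a normalised count of 10 in each. Day 9 replicates 2 and 3 belong to 18 libraries of the series with a high sum of normalised counts, in which ribosomal protein genes take a larger share: 12.3% and 11.6%, against 6.05% in day 9 replicate 1 and 7.29% and 4.56% in day 11 replicates 2 and 3. Day 9 replicate 1 stands apart from its replicates in other ways. Its chi-squared per degree of freedom was 227 against replicate 2 and 213 against replicate 3, while replicates 2 and 3 differed by 36.6. It held 2305 normalised counts of Nfia against 497 and 449, and 4544 of Olig2 against 1262 and 902. These 18 are all the libraries of day 7 replicate 3 and of day 9 replicates 2 and 3, in both genotypes. The labels name no batch that they share. Neither day 11 library is among them, so a high total and day cannot be fully told apart here. Values "without the high-total libraries" below compare day 11 with day 9 replicate 1 alone. That lone library was assumed to vary like the other groups.

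Defining markers of pM were present on both days. The summed level of Olig2, Olig1, Nkx6-1 and Sox2 was 3698 to 8115 at day 9 and 6328 to 11391 at day 11, and none of the 4 changed by the test. Summed markers of p2 were 184 to 488 and then 194 to 287, and those of p0-p1 were 204 to 455 and then 487 to 690. Among markers of blood and microglia, Ptprc, Csf1r, C1qa and Tyrobp summed to 0 in all day 9 libraries and to at most 2.40 at day 11. Pan-neuronal markers overlapped between the days, with sums of 11669 to 18166 and of 13781 and 19020. Mesenchymal markers did not: 9 genes summed to 174 to 612 at day 9 and to 1313 and 3748 at day 11, the higher value in replicate 3, and 3 of the 9 (Col1a1, Col1a2 and Acta2) were called higher. Without day 11 replicate 3 none of the mesenchymal genes was called, and their part in the results below was not tested. All of these values come from bulk RNA, in which more cells of a type and more RNA per cell cannot be told apart.

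Between day 9 and day 11, astroglial, perineural matrix and growth factor genes rose, and genes of DNA replication and mitosis fell, as did Cyp26a1 and Crabp2, which handle retinoic acid. The fit (limma on log2 of normalised count + 1, with a mean for each group of the series) called 637 genes at a Benjamini-Hochberg adjusted p of 0.05 or less, which is 4.8% of those tested. Of these, 364 were higher at day 11 (2.74%) and 273 lower (2.06%), and in 627 the libraries of the 2 days did not overlap. Over all genes tested, 36.6% had libraries that did not overlap. The median difference was 0.03 over all genes and the median absolute difference of called genes was 1.76. Of all differences, 6875 were above 0 and 6393 below. Counts for gene lists below are to be read beside these shares, and the lists were chosen with earlier results of these data known. All 637 kept their sign without the high-total libraries. For the 627 with separate libraries this was fixed in advance, because the remaining day 9 library is part of the main comparison. The total depends on single libraries: it was 131 without day 11 replicate 2, 358 without day 11 replicate 3, 352 without day 9 replicate 2 and 417 without day 9 replicate 3, and 99 genes were called in all 5 fits that leave out 1 of the libraries.

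**Figure D1:**
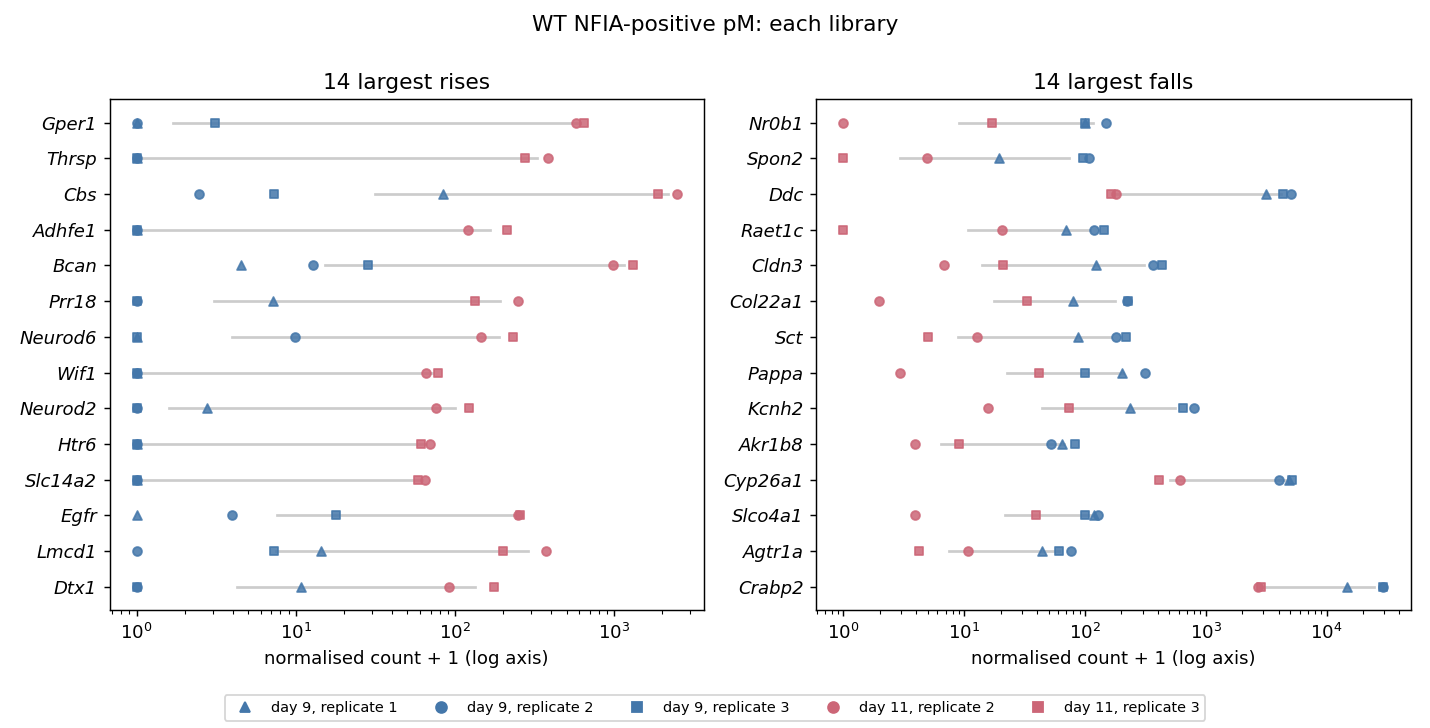
Normalised count + 1 (log axis) in each of the 5 libraries for the 14 largest rises (left) and the 14 largest falls (right) among called genes with separate libraries and a group mean of 50 or more on the higher day. Blue marks are day 9, red marks day 11, and grey lines join the group means. Gper1 goes from 2.10 or less to 574 and 638, and Ddc from 3121 to 5050 down to 181 and 163.

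The largest rises were genes at or near 0 on day 9. Gper1, a G protein coupled receptor for oestrogen (chr5:139423151-139427800, GRCm38), had normalised counts of 0, 0 and 2.10 at day 9 and of 574 and 638 at day 11. Its 2 reads at day 9 against 1384 at day 11 give a ratio of 841 (exact 95% interval 232 to 6955, counting error only). Thrsp, a regulator of lipid synthesis, was at 0 in all 3 day 9 libraries and at 381 and 274 at day 11, at least 62.1-fold higher when each day 9 library is given a floor of 3 reads. By the same floor Adhfe1 was at least 27-fold, Wif1 at least 14.6-fold, Htr6 (the serotonin receptor 5-HT6) at least 13.6-fold and Slc14a2 at least 13.1-fold higher. Cbs, the enzyme that makes cystathionine from homocysteine, went from 83.2, 1.47 and 6.30 to 2458 and 1885, a log2 difference of 7.55 ± 1.45 (SE; limma adjusted p = 0.000597). Its highest day 9 value is that of replicate 1, and the difference without the high-total libraries was 4.68 (adjusted p = 0.0853). Prr18, Lmcd1 and Dtx1, a regulator of Notch signalling, also belong to the 15 largest rises, with log2 differences of 6.55, 5.86 and 5.84. Without the high-total libraries these were 4.66, 4.26 and 3.56. Wif1 lost its call without day 11 replicate 2 (adjusted p = 0.107) or replicate 3 (0.0825), and Lmcd1 without day 9 replicate 2 (0.0583) or day 11 replicate 2 (0.124). The other genes of this paragraph stayed called whichever of the 5 libraries was left out. Thrsp, Adhfe1, Wif1, Htr6 and Slc14a2 are at 0 in day 9, so leaving out a day 9 library cannot move their estimates. They, Gper1, Prr18 and Dtx1 lie below 10 in day 9 and passed the filter only through day 11, where they are high. Cbs and Lmcd1 did not reach 10 in 2 day 9 libraries and also passed only through day 11.

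Astroglial genes rose from low levels. Of 24 tested members of the astroglial list, 9 were called higher, against 2.74% of all genes, and none lower. The median log2 difference was 1.48 (1.46 with S100b, which is at 0 in day 9, set to its bound) against 0.03 for all genes. S100b, among the 9, passed the filter only through day 11, where it is high. Ndrg2, a gene of mature astrocytes, had normalised counts of 130, 41.2 and 106 at day 9 and of 3536 and 3651 at day 11 (log2 difference 5.42 ± 1.07, limma adjusted p = 0.000825). Every day 11 library lay far above every day 9 library. Without the high-total libraries Ndrg2 differed by 4.78. Aldh1l1, a folate enzyme used as an astrocyte marker, went from 41.6, 1.47 and 18.9 to 514 and 542 (5.37 ± 1.15, adjusted p = 0.00228). Sparcl1, a secreted synaptogenic protein, rose by 3.95 and Aldoc, the brain aldolase, by 2.77. The glutamate transporter Slc1a3 was already abundant: it held 4351, 2527 and 2794 at day 9 and 8154 and 9310 at day 11 (1.48 ± 0.39, adjusted p = 0.0158). Tril and Mt2 rose by 2.97 and 2.30. Not all of the list moved: Gfap was at 0 in all 5 libraries, Aqp4 reached at most 16.6, and Apoe and Cst3 differed by 0.20 and 0.16 without a call. The list held 4 called genes without day 11 replicate 2, with Aldh1l1 at an adjusted p of 0.0581, S100b at 0.119 and Slc1a3 at 0.124, and without the high-total libraries it held 3. Slc1a3 was also not called without day 9 replicate 2 (0.0852), day 9 replicate 3 (0.062) or day 11 replicate 3 (0.153).

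Genes of the extracellular matrix around neurons and glia gave 5 called members of 20, all higher (2.74% of all genes were), with a median of 1.41. Bcan, the brain chondroitin sulphate proteoglycan brevican, had normalised counts of 3.54, 11.8 and 27.3 at day 9 and of 985 and 1309 at day 11 (6.59 ± 1.33, limma adjusted p = 0.00119). Timp4, an inhibitor of matrix proteases, went from 85.8, 16.2 and 0 to 738 and 520 (5.76), its relative Timp3 rose by 2.26, and the calcium-binding matrix protein Smoc1 went from 87.6, 44.1 and 53.5 to 745 and 668 (3.55). The other called member is Sparcl1. For Timp4 the call was lost without day 9 replicate 3 (adjusted p = 0.0582) or day 11 replicate 2 (0.0844).

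Receptors and ligands of growth factor pathways gave 6 called genes of 22, all higher (2.74% of all genes were), with a list median of 0.85. Egfr, the receptor of epidermal growth factor, was at 0, 2.94 and 16.8 at day 9 and at 248 and 253 at day 11 (5.93 ± 1.21, limma adjusted p = 0.00132), and without the high-total libraries it differed by 7.98. Hbegf, one of its ligands, went from 83.2, 119 and 50.4 to 337 and 299 (1.99). Pdgfra, the receptor that marks oligodendrocyte precursors, had 39.8, 1.47 and 1.05 at day 9 and 224 and 118 at day 11 (4.79 ± 1.19, adjusted p = 0.00979). The highest day 9 value was again that of replicate 1, and without the high-total libraries the difference was 2.00 (adjusted p = 0.251). Its ligand Pdgfa rose by 1.83, the neurotrophin receptor Ntrk2 by 1.77, and Gdnf went from 1 read to 36, a ratio of 43.8 (exact 95% interval 7.37 to 1776, counting error only). Of the 6, only Egfr stayed called without day 11 replicate 2, and the list held 2 called genes without day 9 replicate 3, 3 without day 9 replicate 2, 3 without day 11 replicate 3 and 1 without the high-total libraries. The adjusted p of Hbegf was 0.0675 without day 9 replicate 3, 0.141 without day 11 replicate 2 and 0.056 without day 11 replicate 3, and Pdgfa was not called without day 11 replicate 2 (0.119). Gdnf lost its call without day 9 replicate 2 (0.11), day 9 replicate 3 (0.102), day 11 replicate 2 (0.318) or day 11 replicate 3 (0.105).

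Oligodendrocyte precursor genes had the highest median among the glial lists, 2.40, but few calls: 3 of 14 were called higher. These were Pdgfra, Gpr17 (42.5, 2.94 and 0 against 181 and 111) and Lhfpl3 (0.885, 1.47 and 11.5 against 140 and 160). Lhfpl3 stayed called whichever library was left out. Pdgfra lost its call without day 9 replicate 2 (adjusted p = 0.0708), day 9 replicate 3 (0.0762) or day 11 replicate 2 (0.177), and Gpr17 without day 9 replicate 3 (0.0952) or day 11 replicate 2 (0.148). The transcription factors of the lineage did not pass the test. Sox10 was at 89.4, 48.5 and 57.7 and then at 467 and 472 (2.88 ± 1.12, adjusted p = 0.146), Olig1 at 1147, 1275 and 1182 and then at 6438 and 3586 (2.00, adjusted p = 0.283), and Nkx2-2 at 15.0, 13.2 and 23.1 and then at 128 and 84.9 (2.58, adjusted p = 0.0822). In each of these 3 genes the day 11 libraries lay above all day 9 libraries, as they did in 21.2% of all genes tested. C1ql1 had the lowest difference of the list, -3.03, without a call. Among genes of myelination, the tight junction protein Cldn11 rose from 2 reads to 84, a ratio of 51.1 (exact 95% interval 13.7 to 429, counting error only). It was not called without day 11 replicate 2 (adjusted p = 0.365) or day 9 replicate 2 (0.0887). Cldn11 too passed the filter only through day 11.

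Among gliogenic transcription factors, 3 of 24 were called, all higher (2.74% of all genes were). Hopx, a homeodomain protein of late radial glia, had normalised counts of 1282, 1178 and 1155 at day 9 and of 15454 and 13157 at day 11, a log2 difference of 3.56 ± 0.61 (limma adjusted p = 0.000127) with narrow spread on both days. Nfib went from 774, 316 and 361 to 3136 and 2539 (2.66 ± 0.66, adjusted p = 0.00953), and Klf15, a target of glucocorticoid signalling, from 152, 1.47 and 78.7 to 534 and 315 (3.72). Nfia itself, the antigen of the gate, had 2305, 497 and 449 at day 9 and 1909 and 1770 at day 11. The day 9 values span the day 11 values, and the difference of 1.20 ± 0.66 did not pass the test (adjusted p = 0.346). Sox9 and Olig2 differed by 0.15 and -0.08, with day 9 replicate 1 the highest library for each. Nfib lost its call without day 9 replicate 2 (0.0583), day 11 replicate 2 (0.155) or day 11 replicate 3 (0.0591), and Klf15 without the same 3 libraries (0.397, 0.291 and 0.12). Hopx kept its call in all 5 of these fits.

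Radial glia genes moved both ways, with 4 of 17 called higher and Nes, the intermediate filament nestin, called lower (-1.18). The call of Nes was lost without either day 11 replicate. Beside Hopx and Slc1a3 the higher genes were Ttyh1, a chloride channel protein (1.41, not called without day 11 replicate 2 or replicate 3, at 0.148 and 0.0706), and Ptn, the heparin-binding growth factor pleiotrophin. Ptn had normalised counts of 40.7, 17.6 and 40.9 at day 9 and of 1315 and 657 at day 11 (4.86 ± 0.51, limma adjusted p = 6.51e-09). It had held 880 and 1084 in WT pM cells of day 5 and 115 to 133 at day 7, so the day 9 libraries are the low point of the course. Fabp7, a lipid-binding protein, was at 57661, 105741 and 102809 and then at 134038 and 60175 and did not change by the test.

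**Figure D2:**
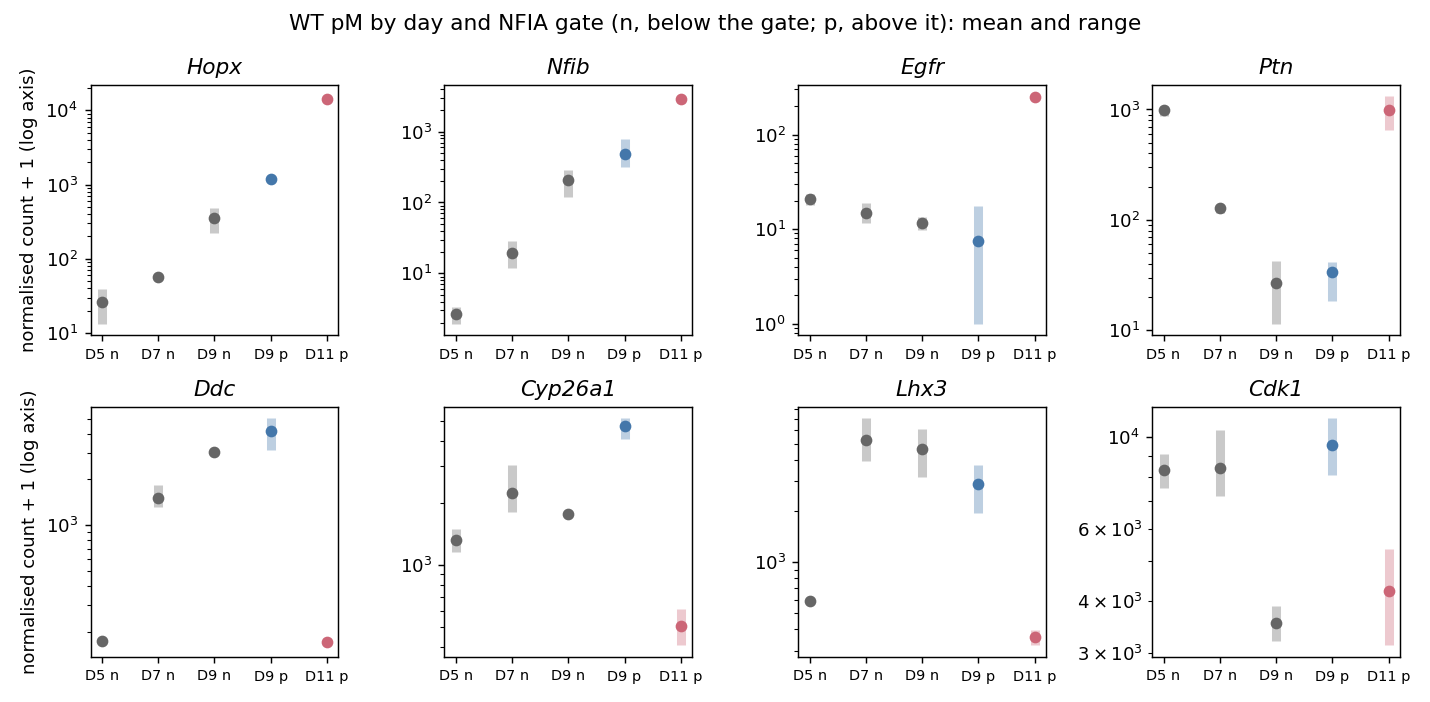
Normalised count + 1 (log axis) of 8 genes in WT pM cells by day and gate. Points are group means and bars run from the lowest to the highest of the 2 or 3 libraries, with grey for cells below the NFIA gate, blue for day 9 and red for day 11 above it. Ptn and Egfr reach means of 986 and 251 at day 11 from 33.1 and 6.58 at day 9, while Ddc, Cyp26a1, Lhx3 and Cdk1 are lower at day 11 than at day 9 above the gate.

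Neuronal genes did not fall as a group. Of 26 genes of postmitotic neurons, 4 were called higher, against 2.74% of all genes, and none lower: Gng3 (2.29), Map2 (1.87), Rtn1 (1.46) and Nsg2 (1.46). Nsg2, an endosomal protein of neurons, had 890, 908 and 812 at day 9 and 2221 and 2559 at day 11. Rtn1 and Nsg2 stayed called whichever library was left out, whereas Gng3 was not called without day 9 replicate 2 (0.0631), day 11 replicate 2 (0.117) or day 11 replicate 3 (0.0931), and Map2 without those 3 or day 9 replicate 3 (0.161, 0.345, 0.0588 and 0.0812). The proneural factor Neurog2 differed by 0.02, while its relatives Neurod6 (0, 8.83 and 0 against 145 and 230, log2 difference 6.42) and Neurod2 (2 reads against 229, a ratio of 139, exact 95% interval 38.1 to 1157) rose. Neurod6 and Neurod2 lay below 10 in day 9 and passed the filter only through day 11, where they are high. Of 26 genes of synaptic adhesion and receptors, 24 had a positive difference (6875 of all 13268 genes did). In 16 the day 11 libraries lay above all day 9 libraries (21.2% of all genes did). Only Lrrtm1 was called (2.18, limma adjusted p = 0.0369). It lost its call without any one of day 9 replicate 2 (0.16), day 9 replicate 3 (0.0829), day 11 replicate 2 (0.17) or day 11 replicate 3 (0.274). Axon guidance genes gave 6 calls of 39, all higher (2.74% of all genes were). Slit1, a repellent ligand of ROBO receptors, went from 129, 58.8 and 45.1 to 938 and 1775 (4.18), and the semaphorin Sema5a from 3.54, 2.94 and 13.6 to 187 and 62.5 (4.09), and both stayed called whichever library was left out. The other 4 were Sema6d (2.69), Ephb1 (2.15), Plxna2 (1.84) and Efnb3 (1.41). Sema5a did not reach 10 in 2 day 9 libraries, so it passed the filter only through day 11. Slit1 and Sema5a were the 2 that remained without either day 11 replicate, and 3 without day 9 replicate 2 or replicate 3. Its median fell from 0.67 to 0.21 without the high-total libraries.

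Motor neuron genes were mostly lower, with 10 of 12 differences below 0 (6393 of 13268 over all genes) and a median of -1.17. Lhx3, a LIM homeodomain protein of motor neurons and V2a interneurons that is also present in late pM progenitors, had normalised counts of 1945, 2969 and 3752 at day 9 and of 320 and 396 at day 11 (-2.96 ± 0.57, limma adjusted p = 0.000594). It stayed called whichever library was left out, and without the high-total libraries it differed by -2.44. Mnx1 (232, 144 and 199 against 34.2 and 34.4), Chat (83.2, 150 and 36.7 against 4.89 and 8.81) and Isl1 (5488, 5923 and 5133 against 3230 and 2624) lay below in both day 11 libraries without a call. The acetylcholine receptor subunit Chrna3 was the exception, from 50.4, 13.2 and 63.0 to 144 and 171 (2.13, adjusted p = 0.0383). Without day 9 replicate 2, day 11 replicate 2 or day 11 replicate 3 its adjusted p was 0.281, 0.194 or 0.242. The summed markers Isl1, Isl2, Mnx1 and Chat were 5498 to 6265 at day 9 and 2690 and 3291 at day 11, and their part in the Lhx3 result was not tested.

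Of 12 tested genes of the retinoic acid pathway, Cyp26a1 and Crabp2 fell, and the list median was -0.05. Cyp26a1, the enzyme that degrades retinoic acid and that retinoic acid itself induces, had normalised counts of 4896, 4060 and 5148 at day 9 and of 608 and 406 at day 11 (-3.23 ± 0.62, limma adjusted p = 0.000597). Crabp2, which carries retinoic acid to its nuclear receptors, went from 14638, 29572 and 29324 to 2720 and 2884 (-3.06 ± 0.46, adjusted p = 1.33e-05), with day 9 replicate 1 the lowest of its day. Both stayed called whichever library was left out. Without the high-total libraries Cyp26a1 differed by -3.30 and Crabp2 by -2.39. The other 10 tested genes of the list were not called, among them the receptors Rara (-0.10) and Rarb (-0.41). In WT pM cells below the gate, Cyp26a1 was at 1148 and 1484 on day 5, the last day of retinoic acid, at 1804 to 3047 on day 7 and at 1708 and 1805 on day 9. Its level above the gate on day 9 was thus the highest of the course. The stretch before the start of Cyp26a1 is shown because it holds a direct repeat of the kind that retinoic acid receptors bind. It is from RefSeq (GRCm38.p6, chr19:37697558-37697797, plus strand), 5′ to 3′, with the repeat (AGTTCA, 5 bases of any kind, AGTTCA), which here lies on the opposite strand, in capitals.
Cyp26a1: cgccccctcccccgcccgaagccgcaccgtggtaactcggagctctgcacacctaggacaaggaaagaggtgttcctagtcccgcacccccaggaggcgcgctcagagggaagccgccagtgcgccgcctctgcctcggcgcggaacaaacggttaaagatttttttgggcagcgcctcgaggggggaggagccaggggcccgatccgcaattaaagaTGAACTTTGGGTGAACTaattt
Searched on both strands in the 250 bases before the start, these letters were present in 7 of 27025 genes with a promoter in the RefSeq table (0.0259%) and in 1 of 9 of the retinoic acid list. A match describes the letters and does not show a site in use.

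Genes of DNA replication and of mitosis were lower almost without exception. In the replication list 14 of 30 were called lower (2.06% of all genes were) and none higher. In 29 the difference was below 0 (6393 of 13268 over all genes), and the median was -0.93. Day 11 libraries lay below all day 9 libraries in 25 of the 30, against 15.4% of all genes. Ccne2, the cyclin that drives entry into S phase, had normalised counts of 1036, 1274 and 1393 at day 9 and of 290 and 492 at day 11 (-1.69 ± 0.30, limma adjusted p = 0.000195). Chaf1b, a histone chaperone subunit at the replication fork, went from 3352, 2716 and 3364 to 959 and 1674 (-1.30), and the sliding clamp Pcna from 9320, 13434 and 12412 to 5074 and 5058 (-1.19). In E2f1 (1238, 475 and 423 against 243 and 182) day 9 replicate 1 was far above its replicates. Among 32 genes of G2 and M phase, all differences were below 0, 13 were called lower and the median was -0.93. Libraries were separate, with day 11 below, in 15 of the 32. Birc5, the survivin of the chromosomal passenger complex, went from 9811, 9130 and 8851 to 2629 and 3390 (-1.63), the checkpoint kinase Bub1 from 1800, 946 and 1322 to 343 and 679 (-1.44), and Cdk1, the kinase of mitotic entry, from 11099, 8069 and 9434 to 3128 and 5368 (-1.21 ± 0.29, adjusted p = 0.00803). Mki67 was lower in both day 11 libraries (606 and 850 against 1077 to 1884) without a call.

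Of the 2 day 11 libraries, replicate 2 was the lower in 24 of the 30 replication genes and in all 32 of G2 and M phase. Without day 11 replicate 2 no gene of either list was called, and the medians were -0.65 for replication and -0.38 for G2 and M phase. Without day 9 replicate 1 the counts were 7 and 5, without day 9 replicate 2 they were 8 and 10, and without day 9 replicate 3 they were 7 and 10. Without the high-total libraries they were 5 and 14. Without day 11 replicate 3, Pcna (0.224), E2f1 (0.288) and Birc5 (0.0566) were not called, nor was E2f1 without day 9 replicate 1 (0.197) or Pcna without day 9 replicate 2 (0.157) or replicate 3 (0.124). Regulators around the cycle moved both ways. Ccnd1, the cyclin of G1, fell by 1.24 and the inhibitor Cdkn1a by 1.22 (4861, 5996 and 4857 against 2119 and 2353), while Cdk6, a partner of D cyclins, rose from 17.7, 8.83 and 4.20 to 164 and 138 (3.94 ± 0.74, limma adjusted p = 0.000504) and Myc from 98.2, 16.2 and 112 to 494 and 548 (3.17). Cdkn1a, Cdk6 and Myc stayed called whichever library was left out. Cdk6 did not reach 10 in 2 day 9 libraries, so it passed the filter only through day 11. Ccnd1 did not, with an adjusted p of 0.171 without day 9 replicate 1, 0.0694 without day 9 replicate 3 and 0.591 without day 11 replicate 2.

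Ccnb2, the mitotic cyclin B2, was at 4568, 3587 and 2627 and then at 1271 and 2742 (-0.91, limma adjusted p = 0.0381), with libraries that overlap. The stretches before Ccnb2 and Cdk1 are shown as examples that hold both sets of letters counted below. They are from RefSeq (GRCm38.p6), 5′ to 3′ on the minus strand, for Ccnb2 chr9:70421555-70421804 and for Cdk1 chr10:69352939-69353162. Capitals mark CCAAT (or ATTGG, the same letters on the other strand) and TTTGAA, the core of a cell cycle element.
Ccnb2: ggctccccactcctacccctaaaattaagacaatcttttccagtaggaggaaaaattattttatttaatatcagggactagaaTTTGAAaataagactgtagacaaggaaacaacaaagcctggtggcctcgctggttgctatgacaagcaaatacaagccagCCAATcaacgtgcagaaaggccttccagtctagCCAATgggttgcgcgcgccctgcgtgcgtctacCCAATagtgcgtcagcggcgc
Cdk1: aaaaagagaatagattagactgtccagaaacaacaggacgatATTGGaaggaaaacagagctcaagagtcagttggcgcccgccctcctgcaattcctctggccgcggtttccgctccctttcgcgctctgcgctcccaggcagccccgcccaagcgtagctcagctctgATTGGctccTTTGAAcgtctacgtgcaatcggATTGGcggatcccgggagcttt
Both stretches hold 3 CCAAT letters and 1 TTTGAA. In the 250 bases before the start, CCAAT was present in 24 of the 27 genes of the G2 and M phase list with a promoter in the table and TTTGAA in 12, against 41% and 12.1% of the 10018 tested genes with a promoter. Of the 10 called lower, 8 held CCAAT and 3 held TTTGAA. In the replication list the counts were 15 and 4 of 23. TTCCCGC, the core of E2F sites, was present in 8 of those 23 and in none of the 27, against 8.33% of tested genes. These shares describe the lists and were not tested.

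**Figure D3:**
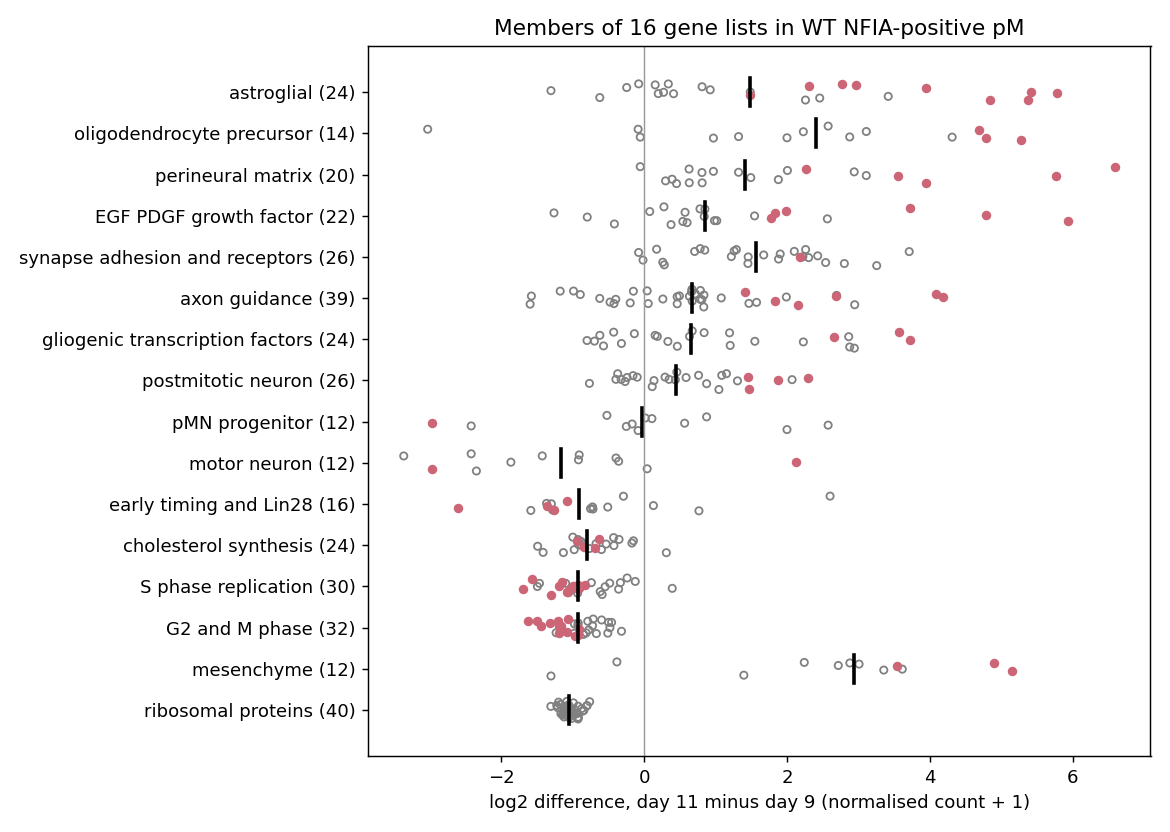
Log2 differences, day 11 minus day 9, of the tested members of 16 gene lists, with the number tested in brackets. Filled red points are called genes, open points are not called, and black bars are medians. Replication and G2 and M phase members lie to the left of 0 with medians of -0.93, while the astroglial gene Ndrg2 lies at 5.42 and ribosomal protein genes lie near -1.05 with no call.

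Ribosomal protein genes were lower too, all 40 of them between -1.31 and -0.76 with a median of -1.05, and none was called. Without the high-total libraries, against day 9 replicate 1 alone, the medians were -0.10 for these genes, -0.90 for replication and -1.42 for G2 and M phase. Why these medians differ was not tested. Cholesterol synthesis genes lay below 0 in 23 of 24 (6393 of 13268 over all genes), with a median of -0.80. They gave 4 calls, all lower (2.06% of all genes were): Idi1 (-0.94), Stard4 (-0.84), Nsdhl (-0.68) and Fdft1 (-0.63). Nsdhl, a sterol dehydrogenase, had 3401, 4487 and 3366 at day 9 and 1941 and 2769 at day 11. None of the 4 was called without the high-total libraries, without day 9 replicate 2, or without day 11 replicate 2, where Idi1 had an adjusted p of 0.367. Without day 9 replicate 3 the count was 1, and without day 11 replicate 3 it was 2. CCAAT was present before the start of all 16 genes of this list with a promoter in the table. The stretch before Nsdhl (RefSeq, GRCm38.p6, chrX:72918271-72918520, plus strand) is shown as an example, with both matches in capitals.
Nsdhl: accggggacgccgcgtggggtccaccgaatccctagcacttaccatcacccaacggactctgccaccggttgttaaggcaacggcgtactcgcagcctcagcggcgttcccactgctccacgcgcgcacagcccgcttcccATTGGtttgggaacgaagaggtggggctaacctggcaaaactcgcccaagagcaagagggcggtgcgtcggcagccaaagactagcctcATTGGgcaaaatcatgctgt

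Genes of early developmental timing gave 4 calls of 16, all lower (2.06% of all genes were), with a median of -0.92. Hmga1 and Hmga2, chromatin proteins of young progenitors, went from 2397, 2376 and 1915 to 733 and 1020 (-1.36) and from 2957, 2471 and 2003 to 1402 and 952 (-1.08). The RNA-binding protein Igf2bp1 fell by 1.26 and the zinc finger factor Sall4 by 2.60, from 126, 16.2 and 11.5 to 3.91 and 4.00. Lin28b was at 32.7, 134 and 112 and then at 28.3 and 35.2, without a call. Each call was lost without a day 11 library: without replicate 2 the adjusted p was 0.166 for Hmga1, 0.367 for Igf2bp1 and 0.189 for Sall4, and without replicate 3 it was 0.269 for Hmga2. Sall4 and Igf2bp1 also lost their calls without day 9 replicate 1 (0.215 and 0.0571) or day 11 replicate 3 (0.145 and 0.0846), and Igf2bp1 without day 9 replicate 2 (0.119) or replicate 3 (0.0927).

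The change with the smallest p of these genes was that of Ddc, the aromatic amino acid decarboxylase that makes dopamine and serotonin (chr11:11814101-11898144, minus strand). It had normalised counts of 3121, 5050 and 4350 at day 9 and of 181 and 163 at day 11, a log2 difference of -4.57 ± 0.30 (limma adjusted p = 1.55e-15). In WT pM cells below the gate it had been at 175 in both libraries of day 5, at 1316 to 1828 on day 7 and at 2932 and 3088 on day 9, so the day 11 level was back near that of day 5. Grb10, the neighbouring gene on the same strand (chr11:11930508-12038683) and imprinted like Ddc, went from 4358, 3663 and 2847 to 1428 and 1215 (-1.44, adjusted p = 0.0205). The imprinted genes Plagl1 and Magel2 fell by 1.23 and 2.66, and no other of the 25 tested imprinted genes was called. Ddc stayed called whichever library was left out. Grb10 lost its call without day 9 replicate 1 (0.0694), day 9 replicate 2 (0.0634), day 11 replicate 2 (0.133) or day 11 replicate 3 (0.188), Plagl1 without day 9 replicate 2 (0.0667) or day 11 replicate 2 (0.155), and Magel2 without day 9 replicate 2 (0.135), day 9 replicate 3 (0.111) or day 11 replicate 2 (0.667).

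Of signalling genes, the secreted Wnt modulator Sfrp2 fell from 28155, 13268 and 13234 to 1825 and 2375 (-3.03 ± 0.40, limma adjusted p = 1.99e-06), and the Wnt pathway list held 3 rises (Wif1, Apcdd1, Fzd1) and 3 falls (Nkd2, Sfrp2, Fzd10) among 30. Apcdd1, a membrane inhibitor of Wnt signalling, went from 38.9, 23.5 and 2.10 to 381 and 589. In the hedgehog list, 3 of 14 were called higher, against 2.74% of all genes: the co-receptors Gas1 (2.58) and Boc (2.09) and the feedback inhibitor Hhip (1.46). Boc had 104, 138 and 157 at day 9 and 544 and 581 at day 11. Without day 11 replicate 2 none of the 3 was called (0.247, 0.0668 and 0.286), and Gas1 and Hhip were not called without day 9 replicate 2 (0.12 and 0.151), day 9 replicate 3 (0.0673 and 0.0614) or day 11 replicate 3 (0.0594 and 0.0856). Apcdd1 was not called without day 11 replicate 3 (0.0599), Nkd2 without day 11 replicate 2 (0.32), or Fzd10 without day 11 replicate 2 (0.318) or day 9 replicate 3 (0.0635). Further falls among the 15 largest were Kcnh2, a potassium channel (236, 793 and 642 against 14.7 and 72.1, -3.87), the angiotensin receptor Agtr1a (43.4, 75.0 and 59.8 against 9.77 and 3.20, -3.13), Pappa, Sct, Cldn3, Col22a1, Nr0b1, Spon2, Raet1c, Akr1b8, Slco4a1 and Pir. Sfrp2, Kcnh2 and Agtr1a stayed called whichever library was left out. Each of the other 10 falls lost its call without at least 1 day 11 library, with adjusted p between 0.0668 and 0.656. Spon2, Raet1c and Cldn3 also lost theirs without day 9 replicate 2 (0.0974, 0.0875 and 0.0513) or replicate 3 (0.0829, 0.093 and 0.0543).

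In WT p2 NFIA-positive cells the same days gave 190 called genes (1.43%), 102 higher (0.769%) and 88 lower (0.663%), with 139 called in both populations in the same direction. These are 21.8% of the pM calls and 73.2% of the p2 calls. For the genes called higher in pM the median change was 2.66 in pM and 1.23 in p2, and for those called lower it was -1.36 and -0.86. These pM values were part of choosing the genes and are a description. In MUT pM NFIA-negative cells 158 genes were called (1.19%), 68 higher (0.513%) and 90 lower (0.678%). Of these, 79 were shared in direction with WT pM: 12.4% of the WT calls and 50.0% of the MUT calls. The p2 and MUT counts cover only genes that passed the filter, which used the WT pM libraries alone. Genes present in p2 or MUT pM but too low in WT pM are left out. The shared percentages and the larger number of WT pM calls hold only within that gene set. Hopx rose in all 3 populations (3.56, 3.30 and 4.15), as did Lhfpl3 (5.28, 4.90 and 4.46), and Crabp2 fell in all 3 (-3.06, -1.92 and -2.96). Thrsp had p2 and MUT changes of 6.99 and -0.36, and Aldoc of 3.50 and 0.07.

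**Figure D4:**
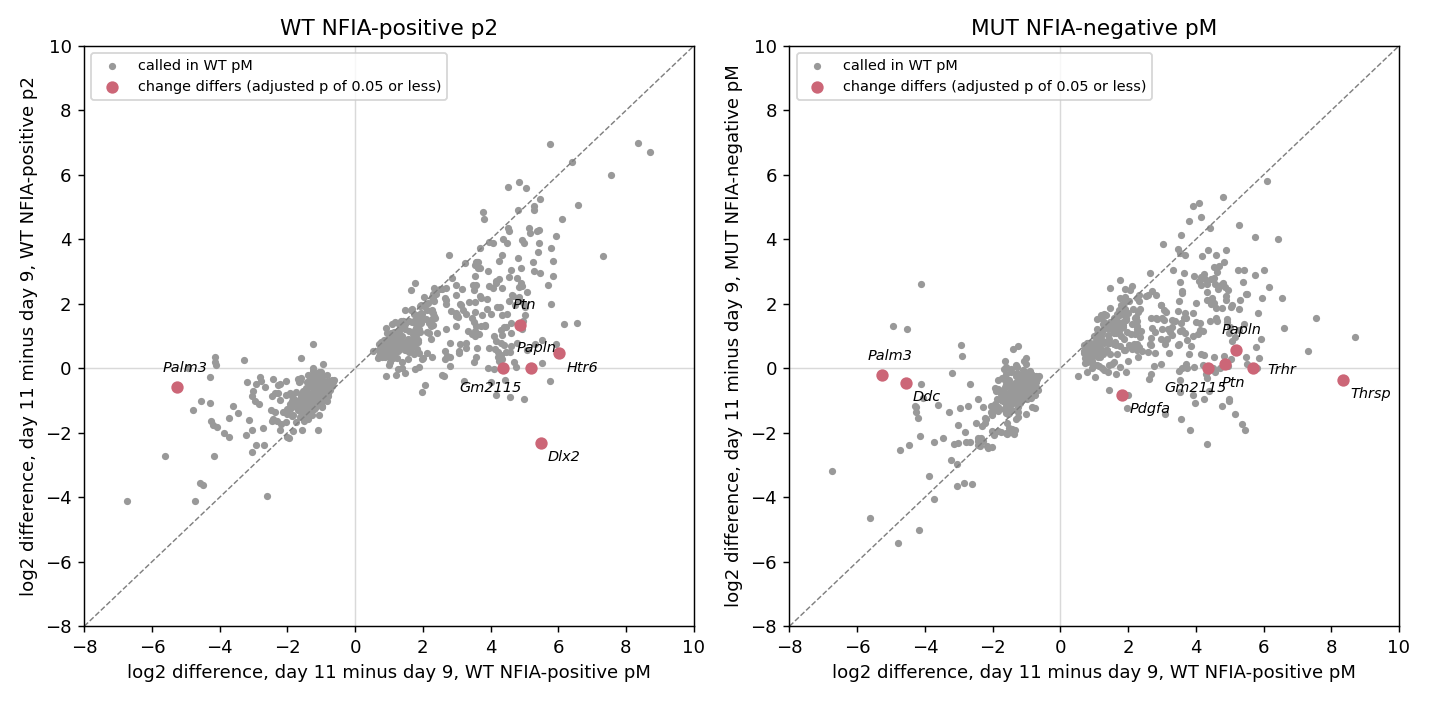
Log2 difference, day 11 minus day 9, of the 637 genes called in WT pM (x axis) against that in WT p2 (left) and MUT pM (right). Red points are genes whose change differed between the populations at an adjusted p of 0.05 or less, and the dashed line marks equal changes. Most grey points lie on the same side of 0 on both axes, while Ddc lies near 0 on the MUT axis only.

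The difference between the pM and p2 changes was called for 6 genes (0.0452%), with a higher change in pM for 5 (0.0377%) and a lower one for 1 (0.00754%). Ptn rose by 4.86 in pM and had a p2 change of 1.34 (303 ± 173 to 723 ± 370 normalised counts, SD, n = 3 and n = 2), a difference of 3.53 ± 0.72 (limma adjusted p = 0.0327). Htr6 was at 0 in all p2 libraries of day 9 and at most at 0.892 at day 11, while pM reached 68.4 and 60.1 (difference 5.56, adjusted p = 0.000682). Dlx2, a homeodomain factor, was at 0 in all day 9 pM libraries and at 84.0 and 22.4 at day 11, whereas in p2 it was at 16.3 to 89.5 and then at 4.46 and 15.7 (7.79, adjusted p = 0.0216). Palm3 was at 23.9, 47.1 and 47.2 and then at 0 in both pM libraries of day 11, at least 8.15-fold lower by a floor of 3 reads per library, against 10.0 to 47.2 and then 10.2 and 15.2 in p2 (-4.70, adjusted p = 0.0499). Htr6, Dlx2, Papln and Gm2115 were at 0 in day 9 pM and passed the filter, which used the 5 pM libraries alone, only through day 11 pM, where they are high. The filter thus favours higher changes in pM, and nothing is read from the split of 5 against 1. The other 2, Papln and Gm2115, fell outside the rule for naming genes and are given because the count is small: both were at 0 at day 9 and reached at most 44.0 and 22.5 in pM. Htr6 alone kept its call whichever pM library was left out, but it was not called by edgeR or DESeq2 (adjusted p of 1 in both). Leaving out a day 9 pM library cannot move the estimate of genes at 0 there, such as Htr6. Ptn was the only one of the 6 called by edgeR (0.0405), and with Dlx2 (0.00839) it was called by DESeq2 (0.00118). For the others the adjusted p without day 11 replicate 2 was 0.693 (Ptn), 0.611 (Dlx2), 0.563 (Palm3 and Gm2115) and 0.0689 (Papln), and no gene was called by the fit on only these groups or without the high-total libraries. Leaving out other libraries ended the call of Ptn (0.201) and Dlx2 (0.0584) without day 9 replicate 2, of Palm3 without day 9 replicate 2, day 9 replicate 3 or day 11 replicate 3 (0.192, 0.146 and 0.1), and of Gm2115 without day 9 replicate 2 or day 11 replicate 3 (0.0734 and 0.0556).

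The difference between the WT and MUT pM changes was called for 8 genes (0.0603%), with a higher change in WT for 6 (0.0452%) and a lower one for 2 (0.0151%). Ddc fell by 4.57 in WT NFIA-positive cells, while in MUT NFIA-negative cells it went from 3466 and 3706 to 2135 and 3196 (-0.46 ± 0.33, not called), a difference of -4.11 ± 0.44 (limma adjusted p = 5.56e-08). This call held in all 16 alternatives tried. Ddc also fell in WT p2 NFIA-positive cells (-3.56, limma adjusted p = 1.53e-11), and its pM and p2 changes did not differ by the test. Ptn was at 45.0 and 57.8 and then at 20.8 and 149 in MUT (difference 4.73 ± 0.76, adjusted p = 0.000768). Trhr, the receptor of thyrotropin-releasing hormone, was at 0 in all 4 MUT libraries and in all day 9 WT libraries, and at 39.1 and 65.7 in WT at day 11 (5.69, adjusted p = 0.00101). Thrsp reached at most 2.65 in MUT (8.70, adjusted p = 0.0157). Pdgfa rose in WT, from 77.9, 33.8 and 68.2 to 263 and 157, and went from 129 and 148 to 64.7 and 92.4 in MUT (2.66 ± 0.54, adjusted p = 0.0224). Palm3 was at 14.9 and 21.2 and then at 13.4 and 17.5 in MUT (-5.07, adjusted p = 0.0269). The other 2 were again Papln and Gm2115. Trhr, Thrsp, Papln and Gm2115 were at 0 in WT pM at day 9 and passed the filter only through WT pM at day 11, so nothing is read from the split of 6 against 2. Ddc, Ptn and Trhr kept their calls whichever WT pM library was left out. For Trhr, at 0 in WT pM at day 9, leaving out a day 9 library cannot move the estimate. Trhr was not called by edgeR or DESeq2 (adjusted p of 1 in both) or with correlated libraries (0.0858), and Thrsp was lost in the same 3 fits (0.383, 0.541 and 0.26). Ddc, Ptn, Pdgfa and Palm3 were called by both edgeR and DESeq2, and of these Pdgfa (0.24) and Palm3 (0.26) were lost with correlated libraries. Without day 11 replicate 2 the adjusted p was 0.247 for Thrsp, 0.412 for Pdgfa and Gm2115 and 0.258 for Palm3 and Papln. Pdgfa also lost its call without day 9 replicate 2 (0.109), Palm3 without day 9 replicate 2, day 9 replicate 3 or day 11 replicate 3 (0.0869, 0.064 and 0.0634), and Gm2115 without any of the other 4 libraries (0.0507 to 0.0811).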

How the data were processed

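The deposited signal is a read count divided by a DESeq2 size factor of its library, with reads mapped to mm10, per the submitters' processing notes, and counted with featureCounts, per the deposited table's name. Versions are not given in the sources used here. Division by the value of 1 read gave whole numbers (within 0.01) for 100% of values, and the recovered reads served edgeR and DESeq2 as alternatives. log2(value + 1) was fitted with limma (trend, two-sided) over all 66 libraries in 26 groups, and p-values were Benjamini-Hochberg adjusted over the 13268 genes tested. A called gene has an adjusted p of 0.05 or less. The members and lists were chosen with earlier results of these data known. Named genes are the 15 largest rises and 15 largest falls among called genes with separate libraries and a mean of 50 or more, up to 4 called members per list by size, a fixed set of regulators and markers whatever their p, and up to 5 genes per direction in each difference of differences. Other list members, Papln and Gm2115 were chosen after their values were seen. Alternatives changed the pseudocount, filter, scaling, tool, samples, block and a term for high total, and left out each pM library. A few named genes are not reported here. Positions are from GENCODE M21 (95.8% of symbols found). The block by replicate number is in the closing section. Models ran in R 4.3.3 (limma 3.58.1, with edgeR 4.0.16 and DESeq2 1.42.0 for alternatives), and figures in matplotlib 3.10.9 under Python 3.11.15.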

Additional observations from a re-analysis of the deposited data

Results flagged for a closer look

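Changes from day 9 to day 11 that differed between populations by the test of the difference itself are collected here as log2 values, with no cause tested. Between WT pM and WT p2 the change differed by 5.56 for Htr6, by 7.79 for Dlx2, by 3.53 for Ptn and by -4.70 for Palm3. Between WT NFIA-positive and MUT NFIA-negative pM it differed by -4.11 for Ddc, 4.73 for Ptn, 5.69 for Trhr, 8.70 for Thrsp, 2.66 for Pdgfa and -5.07 for Palm3. Htr6, Dlx2, Trhr and Thrsp are at 0 in all WT pM libraries of day 9 and Palm3 in both of day 11, so their fitted sizes depend on the pseudocount and are no measure of fold. Neither day 11 library of WT pM has a replicate number 1, and no WT pM cells below the gate were analysed here at day 11.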

How the results depend on the processing

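None of the 114 named called genes reversed its direction under any of the 16 alternatives. Where the libraries of the 2 days do not overlap, leaving out libraries or changing the pseudocount could not have reversed it. The number that lost their call ranged from 0 with the replicate block and 1 with a pseudocount of 8 to 71 in the fit on only the groups compared and 71 without day 11 replicate 2, and it was 23 with edgeR, 17 with a term for the high-total libraries and 58 without those libraries. DESeq2 gave an adjusted p to 109 of the 114, of which 10 lost their call. The count of 637 was 176 in the fit on only the groups compared, 306 without the high-total libraries and 131 to 681 when 1 pM library was left out. Its higher share of 57.1% became 46.6% with the term for high total, 34.9% without day 11 replicate 3 and 68.7% without day 11 replicate 2. The 6 genes of the pM and p2 difference became 16 with correlated libraries, 1 with edgeR, 19 with no filter, 0 in the fit on only the groups compared, 0 without the high-total libraries and 1 to 10 with 1 library left out; at an unadjusted p under 0.05 there were 348. The 8 genes of the WT and MUT difference became 20 with DESeq2, 2 with correlated libraries, 4 with edgeR, 21 with the filter over all libraries, 27 with no filter, 1 in the fit on only the groups compared, 25 with a pseudocount of 8, 14 with the term for high total, 1 without the high-total libraries and 3 to 15 with 1 library left out. The causes were not tested.

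The labels do not say that replicate numbers pair the libraries. With the replicate number as a block the count was 1115, and the 2 same-numbered pairs of day 9 and day 11 had correlations of deviations of 0.096 and -0.055. Populations sorted on the same day from the same genotype under a shared replicate number had a consensus correlation of 0.441, used in the fit with correlated libraries. With 2 libraries at day 11, genes of low level limit what can be seen: the median SE of a log2 difference was 0.45.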
